A study of Mus musculus with 5 samples.

Results

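Autophagy machinery and cargo receptors were followed as 37 genes in MutuDC, a mouse line of cross-presenting (cDC1) dendritic cells, under a compound that the labels call Fanchinoline. The genes were taken by symbol from a table of 53700 gene entries, and each of the 37 symbols had 1 entry. They were grouped by role: the ULK kinase complex (5 genes), the class III PI3-kinase complex and its partners (6), lipid supply and membrane growth (5), the ATG4 proteases (4), the conjugation enzymes (6), the ATG8 proteins (5), cargo receptors (5) and the fusion factor Epg5 (1). Of the 5 libraries, 1 came from vehicle-treated cells (taken as 0 h) and the others from cells exposed for 2, 6, 12 or 24 h. Controls are untreated and samples in triplicate in the design text, while the table has 1 column per time point. No dose is given in the sources used here. The label of the 1 vehicle library gives no time of harvest, so exposure and hours in culture cannot be told apart.

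Autophagy encloses cytoplasm in a double membrane, the autophagosome, and delivers it to lysosomes. The ULK kinase complex starts the process, and the class III PI3-kinase complex marks the forming membrane with a lipid that WIPI proteins read. ATG9 vesicles and ATG2 lipid-transfer proteins supply membrane, and a ubiquitin-like conjugation system attaches ATG8 proteins (the LC3 and GABARAP families) to it. Cargo receptors such as p62, encoded by Sqstm1, bind both cargo and ATG8 and are degraded with the cargo. In dendritic cells the pathway also takes part in delivering antigen for presentation. RNA levels, the quantity measured here, do not report autophagic flux.

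Total counts per library were 33568526 to 42854511. Levels are CPM (counts scaled to library size) with TMM factors of 0.977 to 1.05, and 10 CPM corresponded to 328 to 427 counts. With 1 library per time point there was no replicate spread, and no p-value is given between 2 libraries. Log2 ratios carry 95% exact intervals that cover counting error only. Calls of higher or lower needed a 2-fold difference or more and an interval that excluded a ratio of 1, among 8846 genes that reached 10 CPM in 1 or more libraries. All 11 fixed cDC1 markers reached 10 CPM, with Xcr1 at 276 to 327 CPM and Clec9a at 203 to 251 CPM. Some varied more: Cd8a was at 32.5 CPM in vehicle and 13.7 at 24 h, Batf3 at 71.7 and 43.4, and Cadm1 at 140 and 177, while Irf8 was at 5140 CPM at 2 h and 3283 at 24 h. Of 4 B cell and 4 fibroblast markers 0 reached 1 CPM. The summed cDC1 level was 6276 to 8183 CPM. Among 5 macrophage markers 3 passed 10 CPM, while Mertk was at 0 and Adgre1 at 0.21 to 0.61 CPM. The share of mitochondrially encoded genes was 2.58% of the vehicle counts, and between 1.47% and 1.78% after treatment. Malat1, a nuclear RNA, was at 274, 150, 113, 93.2 and 81.7 CPM in order of time. The part of either in the time trends was not tested. In bulk RNA, fewer cells of a kind and less RNA per cell cannot be told apart.

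The vehicle library differed from the treated libraries in its balance of long and short transcripts. Over all compared genes, the median log2 ratio to vehicle of the longest 20% of transcripts exceeded that of the shortest 20% by 0.57, 0.65, 0.69 and 0.75 at 2, 6, 12 and 24 h. Between treated libraries, 24 h over 2 h, this gap was 0.16. Autophagy transcripts run from 1112 bases (Map1lc3a) to 9660 bases (Epg5). Many ratios to vehicle are therefore accompanied by length-adjusted values, in which the part predicted by transcript length and GC content was removed. Some also carry the ratio of 24 h over 2 h. Levels in CPM, and ratios printed alone, are not length-adjusted. How much of any single ratio to vehicle belongs to this gap was not tested.

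Of the 37 genes 34 passed the level filter, and Wipi1, Atg10 and Map1lc3a did not. Only Epg5 was called higher at 2, 6 and 12 h, and Epg5 and Atg2b at 24 h, and 0 were called lower at any time. These counts of 1, 1, 1 and 2 of 34 genes stand beside 0.904%, 1.57%, 2.33% and 2.86% of all compared genes called higher, and 0.43%, 0.373%, 0.746% and 1.23% called lower. At a 1.5-fold rule 2, 5, 5 and 5 of 34 were higher, against 7.2%, 9.73%, 10.6% and 12.2% of all compared genes. By the 1.5-fold rule 0, 1, 1 and 0 of 34 were lower, the 1 gene being Atg3, against 3.62%, 3.83%, 5.55% and 8.87%. With so few calls, the shares of called autophagy genes stood near the background.

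The members' median log2 ratio to vehicle was 0.11, 0.15, 0.18 and 0.26 at 2, 6, 12 and 24 h, beside 0.03, 0.04, 0.02 and about 0 for all compared genes. Ratios above 0 were found for 23, 23, 26 and 25 of 34 genes, which is 67.6%, 67.6%, 76.5% and 73.5%, against 53.1%, 54.5%, 52% and 50% of all compared genes. Length-adjusted, the medians were 0.03, 0.12, 0.11 and 0.14, beside 0.03, 0.05, 0.02 and -0.01 for all genes. The adjusted ratios lay above 0 for 19, 22, 23 and 21 of 34 genes (55.9%, 64.7%, 67.6% and 61.8%, against 55.3%, 56.9%, 52.2% and 48.2%), so at 2 h the members stood at the level of all genes. For 24 h over 2 h the median was 0.10 against -0.03 for all compared genes, 23 of 34 lay above 0 (background 46.3%), and 0 passed the 2-fold rule in either direction (background 0.859% higher and 0.69% lower). By the 1.5-fold rule Rb1cc1 alone was higher in that comparison (background 3.98%) and 0 were lower (3.8%).

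**Figure D1:**
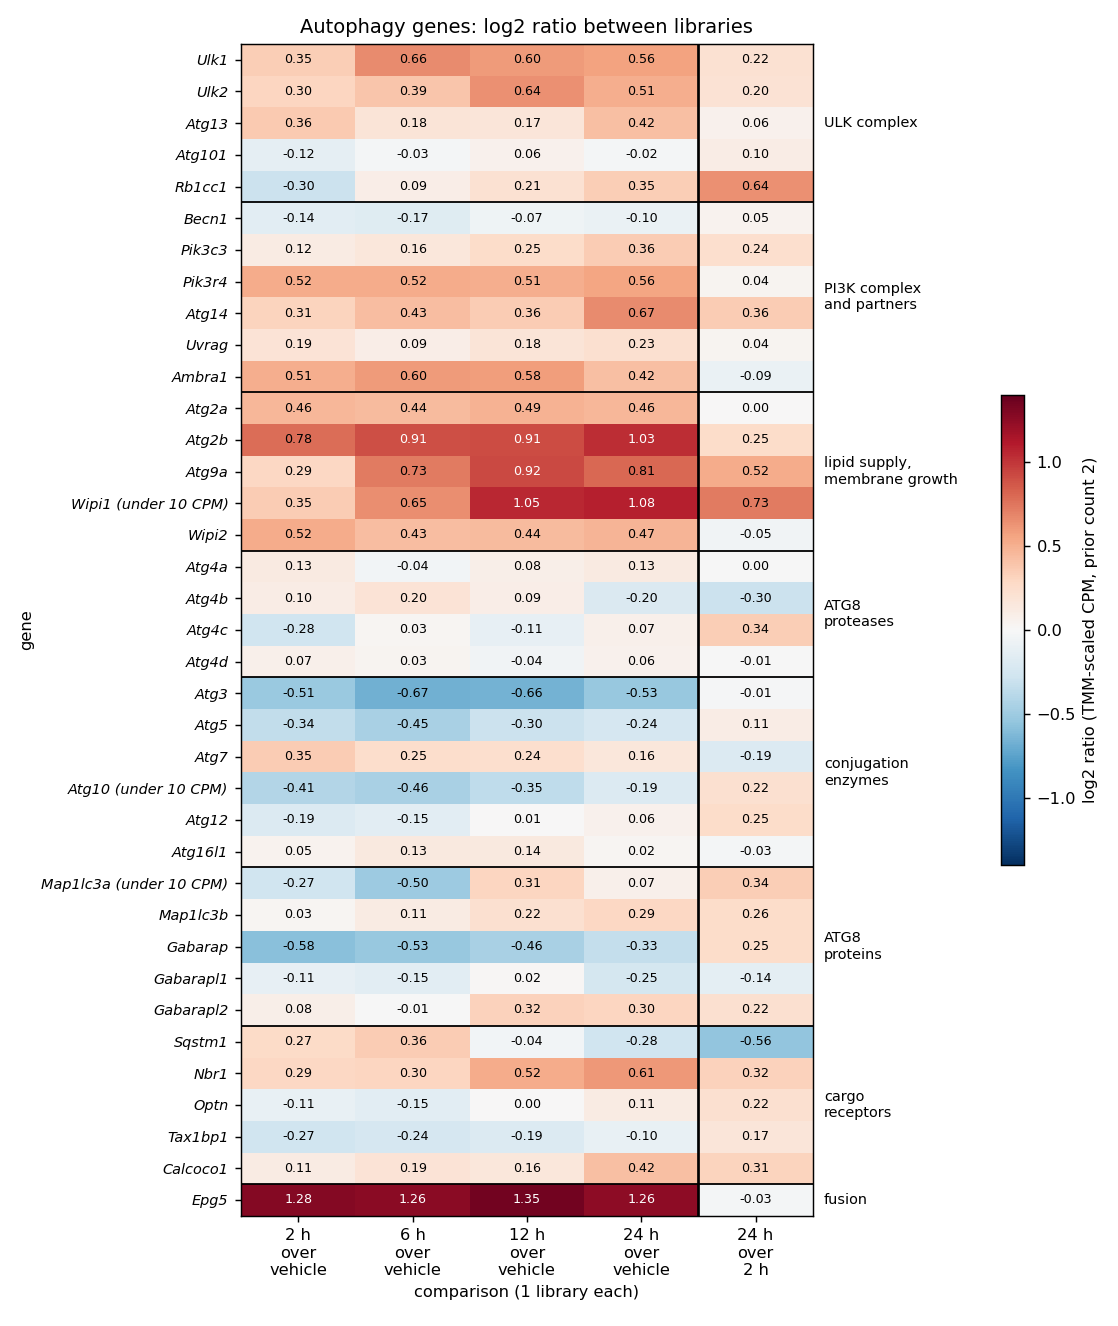
Log2 ratios of the 37 autophagy genes, 1 row per gene ordered by role, in 4 comparisons with vehicle and, right of the vertical line, in 24 h over 2 h. Each cell compares 1 library with 1 library; red is higher and blue lower. Epg5, Atg2b and Wipi1 (under 10 CPM) have the deepest red at 24 h over vehicle, and stand at -0.03, 0.25 and 0.73 in 24 h over 2 h, while Sqstm1 turns from 0.27 at 2 h to -0.28 at 24 h.

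A slope on log2(hours + 1) was then tested over all 5 libraries (edgeR, quasi-likelihood). Atg2b, Atg9a and Nbr1 rose, and 0 fell, of 37 members tested (background 5.16% of 13877 genes rising and 3.87% falling). Slopes per unit of log2(hours + 1) were 0.20 ± 0.05 (SE) for Atg2b, 0.20 ± 0.04 for Atg9a and 0.13 ± 0.03 for Nbr1. The SE was derived as the slope divided by the square root of the test's F statistic. Their adjusted p-values (Benjamini-Hochberg over all genes) were 0.0421, 0.0261 and 0.0342, and ranged under 10 other settings from 0.00113 to 0.307, from 6.62e-05 to 0.233 and from 0.00176 to 0.168. At an unadjusted p under 0.05, 13 of 37 members had a positive slope and 1 a negative slope, against 15.1% and 14.3% of all genes tested. The test takes the lack of fit around the line as its spread, so it is not a replicate test. Without the 12 h library 0 members rose, and 0 genes of the whole table passed. Without 24 h 0 members rose (0.278% of all genes), and without 6 h only Atg9a (1.54%). Without 2 h 7 members rose (9.31%), Pik3r4, Atg2a, Wipi2 and Epg5 among them. Over the 4 treated libraries alone, with time as log2(hours), 3 members rose (Rb1cc1, Atg9a and Nbr1; 7.08% of all genes) and Sqstm1 fell (6.63%).

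Both catalytic ULK kinases stood above vehicle in each treated library. Ulk1, the kinase that starts autophagosome formation, was at 19.2 CPM in vehicle and at 24.5, 30.5, 29.2 and 28.4 CPM at 2, 6, 12 and 24 h. Its log2 ratio at 24 h was 0.56 (0.42 to 0.70), and 0.30 length-adjusted. Ulk2, its close relative, was at 13.1 CPM and then 16.1, 17.1, 20.4 and 18.6 CPM. All treated values of the pair lay above vehicle, and the counts of Ulk2 per count of Ulk1 were 0.68 in vehicle and lay between 0.56 and 0.70 after treatment. Length-adjusted, Ulk1 was at -0.02 and Ulk2 at 0.08 at 2 h.

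Rb1cc1, which encodes the scaffold FIP200, had the highest unadjusted log2 ratio of the 34 genes for 24 h over 2 h. It was at 17.0 CPM in vehicle and at 13.9, 18.1, 19.7 and 21.7 CPM at 2, 6, 12 and 24 h. The 2 h library was the lowest and the 24 h library the highest, a log2 ratio of 0.64 (0.49 to 0.80). Length-adjusted it was 0.35, below Atg9a (0.62), Calcoco1 (0.47) and Atg14 (0.39). Against vehicle, the length-adjusted ratios of Rb1cc1 were -0.39, -0.08, -0.09 and -0.05 at 2, 6, 12 and 24 h. Its slope without the vehicle library was 0.18 with an adjusted p of 0.0147 (edgeR quasi-likelihood test; range over the other settings up to 0.918, and 0.187 with all 5 libraries). Atg101, which stabilises Atg13, stayed between 34.9 and 39.7 CPM, and the adaptor Atg13 was at 28.5 CPM in vehicle and 32.1 to 38.2 CPM later.

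Within the PI3-kinase complex the subunits differed. Becn1, its regulatory subunit Beclin 1, was at 127 CPM in vehicle and between 113 and 121 CPM after treatment. Pik3r4, the kinase-like subunit VPS15, was at 23.5 CPM in vehicle and at 33.8, 33.9, 33.6 and 34.6 CPM afterwards. That is a step of 0.52 (0.39 to 0.65) by 2 h and 0.04 (-0.07 to 0.15) between 2 and 24 h; length-adjusted the step was 0.24. The lipid kinase itself, Pik3c3, was at 34.3, 37.2, 38.4, 40.9 and 43.9 CPM in order of time. Its ratio at 24 h was 0.36, and 0.37 length-adjusted.

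Atg14, the subunit that directs the complex to autophagosome formation, had the largest 24 h ratio in this group. It was at 9.09 CPM in vehicle and at 11.3, 12.3, 11.7 and 14.5 CPM later, a log2 ratio of 0.67 (0.47 to 0.87) and of 0.59 length-adjusted. Vehicle was the lowest library and 24 h the highest, and 24 h over 2 h was 0.36 (0.18 to 0.54). Its adjusted trend p was 0.0757 (edgeR). Uvrag, the subunit of the alternative complex, was at 108 CPM in vehicle and 115 to 127 CPM later. Length-adjusted, its ratios to vehicle were -0.08, -0.18, -0.10 and -0.05 at 2, 6, 12 and 24 h. Ambra1, a Beclin 1 partner, was at 56.8 CPM in vehicle and 76.2 to 85.9 CPM later, with 0.42 at 24 h and 0.13 length-adjusted.

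Among the role groups with several genes, those that supply membrane had the highest median log2 ratio to vehicle at 24 h, 0.64 over 4 genes and 0.35 length-adjusted. Atg2b, 1 of 2 lipid-transfer proteins of the growing membrane (chromosome 12, 105616136 to 105685211, GRCm38), was at 45.3 CPM in vehicle and at 77.9, 85.0, 85.2 and 92.9 CPM at 2, 6, 12 and 24 h. Vehicle was the lowest library by far, and the log2 ratio was 0.78 (0.69 to 0.87) at 2 h and 1.03 (0.95 to 1.12) at 24 h. Length-adjusted, the ratio was 0.32 at 2 h and 0.52 at 24 h, and the latter was no longer called. Between 2 and 24 h the log2 ratio was 0.25 (0.18 to 0.32). Atg2b overlaps Gskip on the other strand, and the library kit does not mark strand. Gskip was at 27.5 CPM in vehicle and 27.9 CPM at 24 h.

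Its paralogue Atg2a differed in course. It was at 41.3 CPM in vehicle and at 57.0, 56.0, 57.9 and 57.0 CPM later, with a log2 ratio of 0.46 at 24 h and 0.12 length-adjusted. Their transcripts have similar lengths (7546 and 6371 bases). The ratio of Atg2b to Atg2a counts was 1.10 (1.02 to 1.18) in vehicle, 1.37 to 1.52 at 2, 6 and 12 h, and 1.63 (1.55 to 1.72) at 24 h. Vehicle had the lowest ratio and 24 h the highest, and their counting intervals did not overlap.

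Atg9a encodes the transmembrane protein of the vesicles that seed autophagosomes (chromosome 1, 75180860 to 75192196). It was at 47.5 CPM in vehicle and at 58.1, 78.8, 90.1 and 83.1 CPM at 2, 6, 12 and 24 h. Vehicle and 2 h were the lowest libraries and 12 h the highest. Its log2 ratio was 0.29 at 2 h (0.04 length-adjusted), 0.92 at 12 h (0.74) and 0.81 at 24 h (0.66), and 0.52 (0.44 to 0.59) for 24 h over 2 h. Atg9a overlaps Ankzf1 on the other strand, at 21.1 CPM in vehicle and 23.1 CPM at 24 h, and Gm29253 on the same strand, at 0.61, 12.9 and 4.47 CPM in vehicle, at 2 h and at 24 h. The sources used here do not give how reads of this locus were divided.

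Wipi2, the main phosphoinositide reader of the forming membrane, was at 38.9 CPM in vehicle and 52.4 to 55.9 CPM later, and 0.18 length-adjusted at 24 h. Its relative Wipi1 stayed below the filter, with 23 counts in vehicle and 34, 48, 57 and 66 counts later. That is 0.70 CPM against 1.55 CPM at 24 h, a log2 ratio of 1.08 (0.44 to 1.89), and 1.06 length-adjusted. With a minimum of 1 CPM in place of 10, Wipi1 was called at 12 and 24 h. The share of all genes called at that minimum is not given here. With 23 counts in vehicle, the call is not read as a result about Wipi1.

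The conjugation enzymes were the group with the lowest ratios to vehicle at 2 and 6 h, with medians of -0.19 and -0.15 over 5 genes. Length-adjusted the medians were -0.04 and -0.20, and at 2 h the ATG8 proteins (-0.07) and proteases (-0.07) were lower. Atg3, the E2-like enzyme that hands ATG8 proteins to lipid (chromosome 16, 45158785 to 45188538), was at 217 CPM in vehicle and at 152, 136, 137 and 150 CPM later. Vehicle was the highest library, and the log2 ratio was -0.67 (-0.72 to -0.62) at 6 h and -0.53 (-0.58 to -0.48) at 24 h. Length-adjusted these were -0.23 and -0.25. The trend was not past the threshold (edgeR adjusted p = 0.104) and passed with length offsets only (0.0443, range up to 0.926 elsewhere).

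Atg5, the partner of Atg12 in the conjugate that drives lipidation, was at 35.3 CPM in vehicle and 25.8 to 29.9 CPM later. Atg7, the E1-like enzyme upstream of Atg3, lay on the other side, at 31.8 CPM in vehicle and 35.4 to 40.5 CPM later. Length-adjusted at 24 h over vehicle, Atg5 was at -0.06 and Atg7 at 0.05. Atg12, the ubiquitin-like protein joined to Atg5, was at 28.9 CPM in vehicle and at 25.3, 26.0, 29.1 and 30.2 CPM later, with 0.25 (0.13 to 0.38) for 24 h over 2 h. Atg16l1, which places the conjugate on membranes, was at 60.5 CPM in vehicle and 61.4 to 66.6 CPM later. Atg10, the E2-like enzyme for Atg12, was below the filter at 2.85 to 3.93 CPM.

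Promoter sequences were searched for CACGTG, the E-box core that TFEB and other bHLH-ZIP factors recognise and that reads the same on both strands. RefSeq windows of 300 bases (250 before to 50 after the start, GRCm38.p6) were found for 30 of the 37 genes. These genes had 34 windows, of which 4 held the letters (11.8%), 1 in each of 4 genes, against 7.15% of all 32851 windows. Counted by gene this is 13.3%, against 8.09% of 27025 genes, and 3 of these 4 encode conjugation enzymes. They are shown because the 4 genes went different ways against vehicle: unadjusted, Atg3 and Atg5 lay below it and Atg7 and Atg14 above. Atg3 and Atg5 have shorter transcripts (2081 and 2352 bases) than Atg7 and Atg14 (3895 and 3729 bases). Length-adjusted, Atg5 was at -0.07, -0.20, -0.09 and -0.06 at 2, 6, 12 and 24 h, and Atg7 at 0.17, 0.09, 0.10 and 0.05. Atg3 was at -0.25 and Atg14 at 0.59 at 24 h after the adjustment. The stretches run 5′ to 3′ on the gene's strand, with the match in capitals.
Atg3, chr16:45158723-45158752, plus strand, 94 bases before the start: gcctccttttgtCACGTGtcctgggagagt
Atg3, chr16:45158746-45158775, plus strand, 71 bases before the start: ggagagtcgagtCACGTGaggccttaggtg
Atg5, chr10:44268313-44268342, plus strand, 14 bases before the start: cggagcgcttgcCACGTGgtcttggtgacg
Atg7, chr6:114670952-114670981, plus strand, 132 bases before the start: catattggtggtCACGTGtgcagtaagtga
Atg14, chr14:47568418-47568447, minus strand, first base 1 before the start: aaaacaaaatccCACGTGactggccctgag
The RefSeq start used for Atg7 lies 27999 bases, and that for Atg14 2215 bases, inside the GENCODE gene. A match is a description of these letters and not a measured binding site.

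Among ATG8 proteins the most abundant transcript was lower in each treated library than in vehicle. Gabarap (chromosome 11, 69991143 to 69994951) was at 357 CPM in vehicle and at 238, 246, 260 and 284 CPM later. The log2 ratio was -0.58 (-0.62 to -0.54) at 2 h and -0.33 (-0.37 to -0.29) at 24 h, and length-adjusted -0.35 and -0.08. Within treatment the order was by time, with 0.25 (0.22 to 0.29) for 24 h over 2 h. Map1lc3b, which encodes LC3B, was at 125, 128, 135, 146 and 152 CPM in order of time. Its 24 h ratio was 0.29 (0.23 to 0.35), and 0.15 length-adjusted. Map1lc3b overlaps Zcchc14 on the other strand, at 13.4 CPM in vehicle and 21.8 CPM at 24 h (10.7% and 14.3% of the Map1lc3b counts).

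Gabarapl2, which encodes GATE-16, was at 57.2 CPM in vehicle and at 60.4, 57.0, 71.5 and 70.5 CPM later. The 12 and 24 h libraries stood above the other three. Length-adjusted, its log2 ratios to vehicle were 0.43, 0.33, 0.61 and 0.56. Gabarapl1 was at 47.8, 44.3, 43.1, 48.5 and 40.2 CPM, lowest at 24 h. These 2 transcripts are of similar length (1677 and 1820 bases), and counts of Gabarapl2 per count of Gabarapl1 were 1.20 (1.12 to 1.28) in vehicle and 1.75 (1.65 to 1.86) at 24 h. Map1lc3a, which encodes LC3A, was below the filter at 2.93, 2.41, 2.05, 3.63 and 3.07 CPM in order of time. Its log2 ratio for 24 h over 2 h was 0.34 with an interval that included 0 (-0.05 to 0.75).

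Per kilobase of the longest annotated transcript, the order in vehicle was Gabarap (264 CPM per kb), Gabarapl2 (34.1), Map1lc3b (30.1), Gabarapl1 (26.3) and Map1lc3a (2.63). At 24 h these levels were 210, 42.1, 36.8, 22.1 and 2.76 CPM per kb. Gabarap was first and Map1lc3a last in both libraries. The ATG4 proteases, which trim ATG8 proteins and release them from lipid, had a median log2 ratio of 0.06 at 24 h, and of -0.10 length-adjusted. Atg4b, the most abundant per kilobase, was at 61.2 CPM in vehicle and at 65.7, 70.0, 65.2 and 53.3 CPM later. The 24 h library was the lowest, a log2 ratio of -0.20 (-0.28 to -0.11), and -0.34 length-adjusted. Atg4d was at 52.6 to 56.9 CPM, with length-adjusted ratios of -0.44 to -0.32, and overlaps Kri1 on the other strand. Kri1 was at 78.0 CPM in vehicle and 52.6 CPM at 24 h, which is 144% and 93.1% of the Atg4d counts. Atg4a was at 9.96 to 11.2 CPM, with length-adjusted ratios of 0.31 to 0.51. Atg4c was at 10.6, 8.71, 10.7, 9.75 and 11.1 CPM in order of time, lowest at 2 h and highest at 24 h, with 0.34 (0.14 to 0.55) between these.

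**Figure D2:**
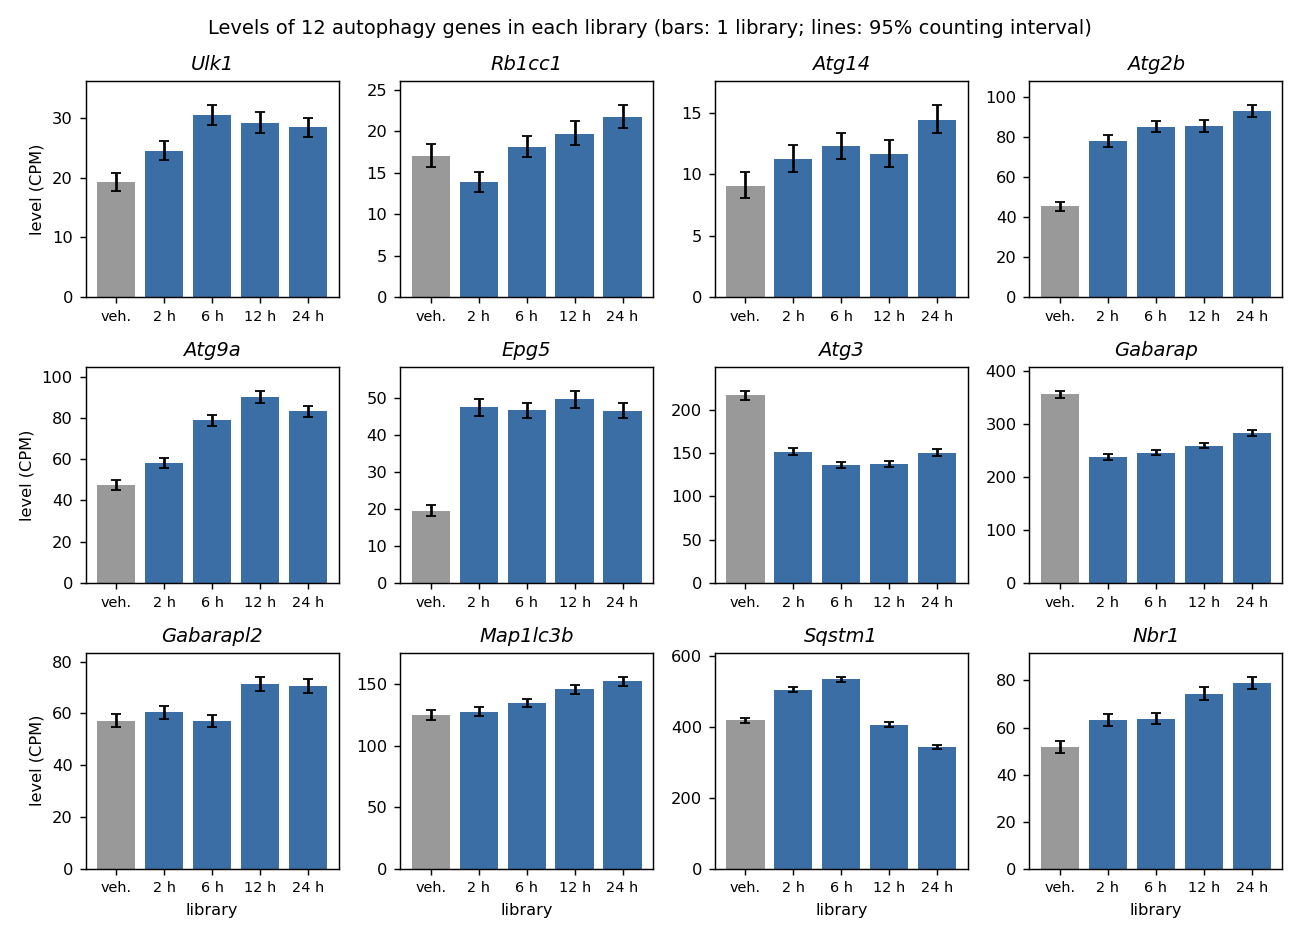
Levels of 12 autophagy genes in CPM (vertical axis, from 0, its own scale for each gene) in the vehicle (veh., grey) and treated (blue) libraries. Bars are 1 library each and lines are 95% exact counting intervals. Epg5 goes from 19.5 to 47.5 CPM by 2 h and is then level, Atg9a increases up to 90.1 CPM at 12 h, and Sqstm1 peaks at 535 CPM at 6 h.

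The cargo receptors Sqstm1 and Nbr1 went apart. Sqstm1, which encodes p62 and is also a target of the oxidative stress factor NRF2 (chromosome 11, 50199366 to 50210827), was at 418 CPM in vehicle and at 505, 535, 406 and 343 CPM at 2, 6, 12 and 24 h. The 2 and 6 h libraries lay above vehicle, and the 24 h library was the lowest of the 5. Log2 ratios were 0.36 (0.32 to 0.39) at 6 h and -0.28 (-0.32 to -0.25) at 24 h, and length-adjusted 0.37 and -0.21. The ratio for 24 h over 2 h was -0.56 (-0.59 to -0.52), the lowest of the 34 genes. A straight line over all 5 libraries gave an edgeR adjusted p of 0.496, and over the 4 treated libraries 0.0395 with a slope of -0.16 per unit of log2(hours) (other settings up to 0.910).

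Nbr1, a receptor with the same cargo- and ATG8-binding design (chromosome 11, 101552149 to 101581951), was at 51.7, 63.1, 63.8, 74.4 and 78.9 CPM in order of time. Vehicle was the lowest and 24 h the highest, with 0.61 (0.53 to 0.69) at 24 h, 0.40 length-adjusted, and 0.32 (0.25 to 0.40) for 24 h over 2 h. Counts of Nbr1 per count of Sqstm1 were 0.124, 0.125 and 0.119 in vehicle, at 2 h and at 6 h, and 0.183 and 0.230 at 12 and 24 h. These are not length-adjusted, and the 2 transcripts differ in length (4789 and 2673 bases). Per kilobase Sqstm1 remained the higher of the pair, at 128 against 16.5 CPM per kb at 24 h.

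Of the other receptors, Calcoco1, a receptor in ER-phagy, was at 24.5 CPM in vehicle, 26.4 to 27.9 at 2, 6 and 12 h and 32.8 CPM at 24 h. Its 24 h ratio was 0.42 (0.30 to 0.55), and 0.48 length-adjusted. Optn, a receptor in mitophagy and in the clearance of bacteria, was at 20.8 to 24.9 CPM. Tax1bp1 was at 100 CPM in vehicle and 83.0, 85.1, 87.9 and 93.5 CPM later, with 0.17 (0.10 to 0.24) for 24 h over 2 h and -0.05 length-adjusted.

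**Figure D3:**
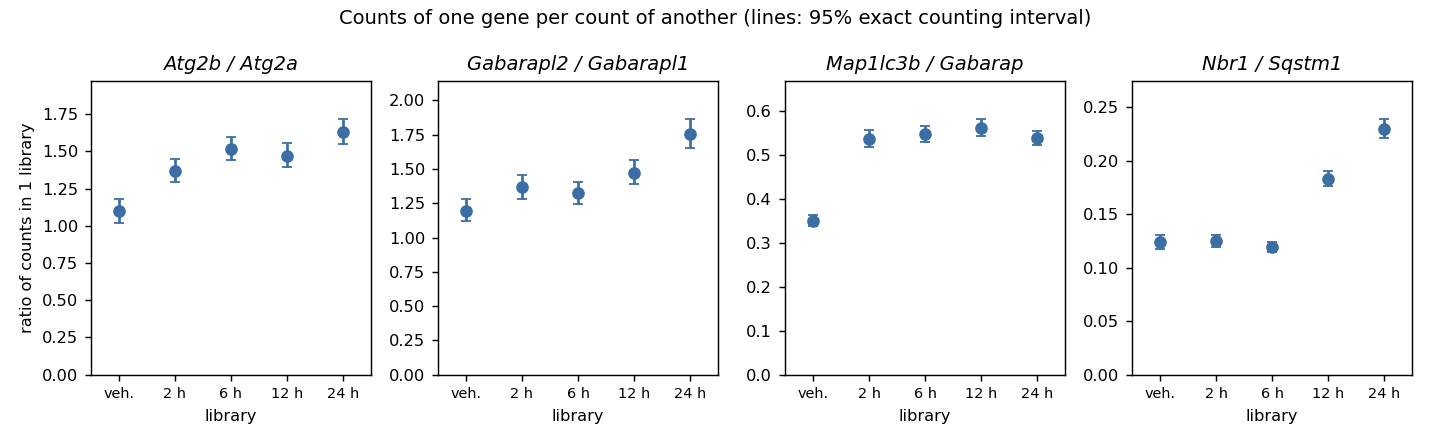
Counts of one autophagy gene per count of another within each library (vertical axes, from 0), with 95% exact counting intervals, in vehicle (veh.) and at 2, 6, 12 and 24 h. Nbr1 per Sqstm1 stays at 0.119 to 0.125 up to 6 h and reaches 0.230 at 24 h, whereas Map1lc3b per Gabarap steps from 0.350 to 0.537 by 2 h and then stays at 0.537 to 0.561. The transcripts of that last pair differ in length (4138 and 1351 bases), and length-adjusted their log2 ratios to vehicle at 2 h were -0.15 and -0.35. Nbr1 and Sqstm1 transcripts also differ in length (4789 and 2673 bases). Length-adjusted, their log2 ratios to vehicle were 0.13 and 0.25 at 2 h, 0.13 and 0.37 at 6 h, and 0.40 and -0.21 at 24 h.

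Epg5, a tether that brings autophagosomes and lysosomes together, had the largest unadjusted ratio to vehicle of the 34 genes. It was at 19.5 CPM in vehicle and at 47.5, 46.7, 49.7 and 46.5 CPM at 2, 6, 12 and 24 h. All treated libraries lay far above vehicle and close to each other: the log2 ratio was 1.28 (1.16 to 1.42) at 2 h and 1.26 (1.13 to 1.39) at 24 h, and -0.03 (-0.12 to 0.06) for 24 h over 2 h. Epg5 has the longest transcript of the 37 genes, and length-adjusted its ratios were 0.71, 0.65, 0.73 and 0.61, below the 2-fold rule at each time, and below Atg9a at 12 h (0.74) and 24 h (0.66). Its trend had an edgeR adjusted p of 0.118 (0.0162 to 0.946 under other settings).

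Across the 34 genes the log2 ratio went with transcript length as it did across all genes. Spearman's rho between ratio and length was 0.53, 0.61, 0.59 and 0.60 over 34 genes at 2, 6, 12 and 24 h over vehicle, and 0.54, 0.56, 0.55 and 0.54 over 8835 genes. For 24 h over 2 h it was 0.00 over the 34 genes and 0.18 over all. Genes share their libraries and are not independent replicates, so these values are descriptive. Length-adjusted, 0 of 34 genes passed the 2-fold rule in any of the 5 comparisons (background 0.441%, 0.702%, 1.29% and 1.66% higher at 2, 6, 12 and 24 h, and 1.01% for 24 h over 2 h; 0.249%, 0.294%, 0.555%, 0.962% and 0.543% lower in the same order).

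**Figure D4:**
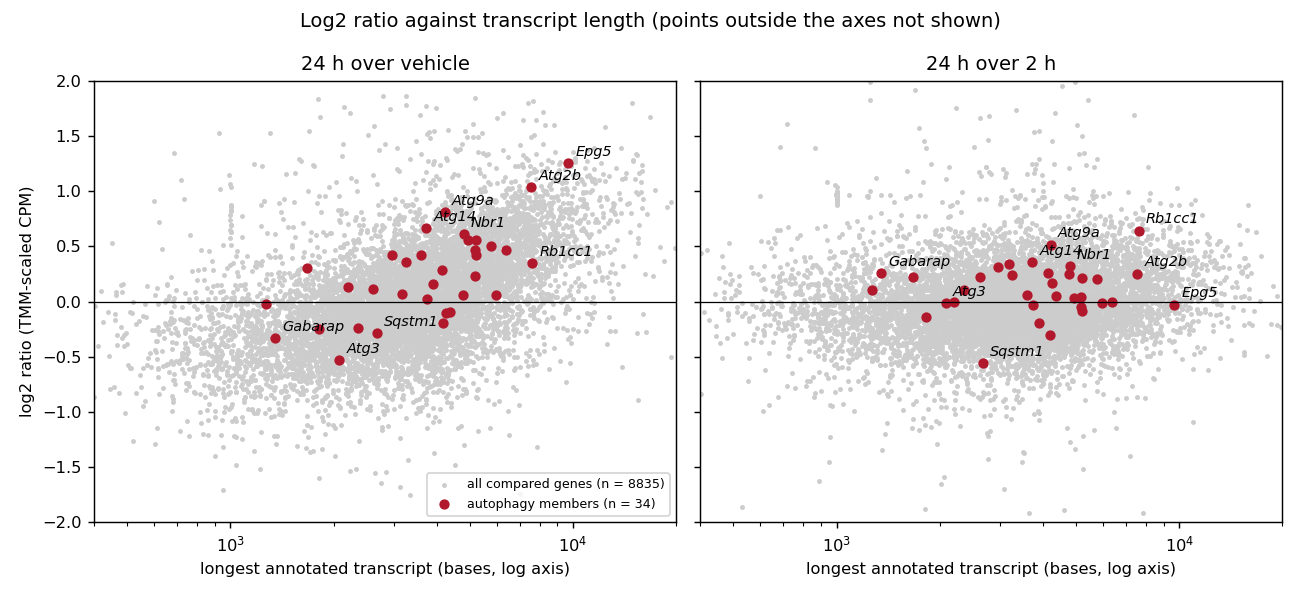
Log2 ratio (vertical axis) against the longest annotated transcript (horizontal, log axis in bases) for 24 h over vehicle (left) and 24 h over 2 h (right). Grey points are 8835 compared genes and red points 34 autophagy genes. In the left panel the long Epg5 and Atg2b stand at the upper right and Gabarap and Atg3 below 0, and in the right panel Epg5 and Atg3 lie near 0 while Sqstm1 is the lowest red point.

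Other genes of the pathway were counted from a list of 38, of which Vamp7 had no entry under that symbol and all other 37 passed the filter. Of these, 1, 2, 3 and 4 were called higher at 2, 6, 12 and 24 h (2.70%, 5.41%, 8.11% and 10.8%, beside the background given above), and 0 lower. At 24 h they were the mitophagy receptors Bnip3 (2.27) and Bnip3l (1.78), Wdfy3 (1.16), a scaffold for aggregate clearance, and Zfyve1 (1.13), which encodes the omegasome protein DFCP1. Bnip3 was at 14.9 CPM in vehicle and at 14.7, 54.8, 78.6 and 71.6 CPM later, and Bnip3l at 35.8, 30.4, 65.3, 120 and 123 CPM in order of time. Unadjusted, both were below or near vehicle at 2 h and above it from 6 h. At 2 h their length-adjusted log2 ratios were 0.45 (Bnip3) and 0.00 (Bnip3l). Length-adjusted, these 2 were the genes of the 37 called at 6, 12 and 24 h and for 24 h over 2 h, Bnip3l at 6 h only after the adjustment. Zfyve1 was at 25.2 CPM in vehicle and at 39.5, 37.6, 42.9 and 55.1 CPM later, and 0.94 length-adjusted. Wdfy3, with a transcript of 14274 bases, was at 113 CPM in vehicle and 232 to 260 CPM later, and 0.41 length-adjusted. In the trend test 4 of 37 rose (10.8%, background 5.16%) and 1 fell (2.70%, background 3.87%). Bnip3, Bnip3l, Zfyve1 and Vps18 rose, and the mitochondrial inner membrane receptor Phb2 fell. Vps18, a subunit of the HOPS tether, was at 66.2 CPM in vehicle and 108 CPM at 24 h. Phb2 was at 253, 225, 221, 172 and 150 CPM in order of time (edgeR adjusted p = 0.0322). Tollip, a ubiquitin-binding adaptor, was at 52.5 CPM in vehicle and 86.6 to 98.5 CPM later, with 0.91 at 24 h and 0.82 length-adjusted.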

How the data were processed

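Poly-A RNA of 5 MutuDC samples was sequenced, 1 library per time point. Per the submitters' processing notes, reads were handled with Trim Galore and HISAT2 on GRCm38. The authors deposited raw counts per gene (53700 entries). The sources used here do not give how reads were counted or whether replicates were pooled. Counting intervals take 1 count as 1 independent read, which PCR copies violate.

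From the counts, TMM factors, log2 CPM (prior count 2) and trend tests were computed with edgeR 4.0.16 in R 4.3.3 (limma 3.58.1), and exact (Clopper-Pearson) intervals from the binomial distribution of 2 counts. The trend test covered the 13877 genes that filterByExpr kept. Its p-values were adjusted after Benjamini and Hochberg (threshold 0.05), with 3 residual degrees of freedom per gene. Length adjustment removed a smooth of longest transcript length and GC content (mgcv 1.9.3) over 8835 genes found in GENCODE M21 (GRCm38). DESeq2 1.42.0 served as an alternative. Scripts were tested on simulated data. The trend test recovered 50 of 100 changed genes at a set size of 0.2 and 88 of 100 at 0.4. It made 4 false calls at either size. The 2-fold rule for 24 h over vehicle recovered 196 of 200 at a size of 1.5, with 0 false calls.

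Members, lists and tests were chosen with earlier results of these data known. Values per library are printed for members called in any comparison, members past the trend threshold and, in each role group, the member with the largest log2 ratio in size at 24 h over vehicle and at 24 h over 2 h. Other members are given by range or in full. Of the other pathway genes, the 6 largest at 24 h over vehicle and any called are named. The CACGTG search and the ratios between 2 members were chosen after values were seen.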

Additional observations from a re-analysis of the deposited data

How the results depend on the processing

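Each result was recomputed with 1 choice changed at a time, except that the fit without vehicle also took time as log2(hours). Leaving out each treated library was added after seeing the data. Of 70 recomputed counts 49 stayed within 1.5 times, and of 25 medians 23 stayed between the median bounds of the members' counting intervals. A count of 0 under both settings was taken as staying, as for falling trends under most settings. The 49 therefore include counts that had no call to lose. Length-adjusted, 0 members were called higher at 2, 6, 12 and 24 h. With a 1.5-fold rule 2, 5, 5 and 5 were higher at these times and 1 for 24 h over 2 h, and 1 was lower at 6 h and 1 at 12 h. With a 1 CPM filter Wipi1 was also called higher at 12 and 24 h. The share of all genes called under that filter is not given here. The median at 24 h over vehicle was 0.36 with total counts alone and 0.14 length-adjusted. Rising trends numbered 6 with the DESeq2 Wald test (9.29% of all genes), 0 without a low-count filter and 0 with time as hours, and 0 to 7 when 1 treated library was left out. Without a filter, with time as hours or without the 12 h library, 0 genes of the whole table passed. Falling trends numbered 1 without vehicle and with log2(hours) (Sqstm1; 6.63% of all genes) and 1 length-adjusted (Atg3; 7.61%). The cause of these shifts was not tested, apart from the laxer rules, which admit more genes. No call changed sign. No paired analysis was possible because each group has 1 library. Wipi1, Atg10 and Map1lc3a had 23 to 147 counts per library, so their intervals are the widest of the members.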
